A study of Mus musculus with 6 samples.

Results

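Oxidative phosphorylation genes were examined in the livers of C57BL/6 mice that had received Nfkbiz or luciferase by gene transfer. The members were the genes whose symbol starts with Nduf followed by a, b, c, s or v, with Uqcr, with Cox4 to Cox8 or with Atp5, together with Sdha, Sdhb, Sdhc and Sdhd, each read by probe sets with exactly 1 symbol in the platform annotation. This rule used no measured value and gave 90 of the 18193 genes named on the array, read by 179 of its 45037 probe sets. A further 10 probe sets that name a member together with other genes were left out. The first group was 3 livers of mice injected intravenously with an AAV8 vector, an adeno-associated virus that transduces the liver, expressing Nfkbiz, which encodes the nuclear IκB protein IκBζ. The second group was 3 livers of mice injected with an AAV8 vector expressing luciferase. All 6 mice were C57BL/6, began CDAHFD, a high-fat diet short of choline with defined amino acids that is used to model fatty liver disease, 4 weeks after the injection, and stayed on it for 4 weeks. No group without the diet or without a vector is analysed here. The sources used here do not give the promoter of the vectors or the age and sex of the mice. The labels do not say that the livers of a group came from separate experiments, and p-values here therefore speak only for the spread among these 6 livers.

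Oxidative phosphorylation couples the oxidation of NADH and succinate to ATP synthesis in the inner mitochondrial membrane. Complex I (NADH dehydrogenase, Nduf genes) and complex II (succinate dehydrogenase, Sdh genes) pass electrons through ubiquinone to complex III (Uqcr genes), cytochrome c and complex IV (cytochrome c oxidase, Cox genes), and ATP synthase (Atp5 genes) uses the resulting proton gradient. Most subunits are encoded in the nucleus and a small set in mitochondrial DNA, and in hepatocytes, which are rich in mitochondria, the pathway takes up the electrons released by fatty acid oxidation.

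Values are MAS5 intensities, the signal of an Affymetrix probe set on a linear scale, which the authors had scaled to 1 target per array. Trimmed of the top and bottom, the middle 96% of intensities averaged 495.2 to 496.3 per array, and array medians ran from 78.2 to 95.2. Precision is limited by there being 3 arrays a group. A difference is the log2 intensity in AAV8-Nfkbiz livers minus that in AAV8-luciferase livers, given ± SE from a limma fit across all genes. The probe set with the highest mean stood for each gene, and genes under an intensity of 47.4 were left out, which left 13312 genes. Nfkbiz itself was checked first, and of its 3 probe sets the one with the highest difference read 4424, 4073 and 2006 in the Nfkbiz livers, against 221.4, 229.5 and 179.7 in the luciferase livers, a difference of 3.98 ± 0.27 (limma adjusted p over the probe sets = 0.00090). The other Nfkbiz probe sets, at 0.30 ± 0.19 and -0.89 ± 0.54, did not pass, and the brighter of these stands for Nfkbiz in the fit over genes. Of 9 hepatocyte markers 5 had a positive difference (median 0.02), with Fgb at 0.15 ± 0.14 and Hnf4a at -0.35 ± 0.14 as the highest and lowest of the 8 that did not pass, and their summed intensity ran from 291410 to 337740 in Nfkbiz livers, against 299460 to 351940 in luciferase livers. The other marker, Tat, which encodes tyrosine aminotransferase, fell by 1.17 on the log2 scale (SE 0.16, limma adjusted p = 0.0218).

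Transcripts of the oxidative phosphorylation machinery differed little between the vectors. Of the 90 members, 88 were above the intensity filter, and 0 of them passed the threshold of 0.05 on the adjusted p of limma, where 0.225% of all 13312 genes did (30 genes, of which 9, or 0.0676%, were higher and 21, or 0.158%, lower). Cox8b, a muscle and brown fat isoform, and Cox7b2, a testis isoform, were below the filter. At an unadjusted p below 0.05 there were 11 members, 12.5% of those tested, against 12% of all genes, a share near the background. These comprised 9 with a higher and 2 with a lower mean in Nfkbiz livers, while among all genes 5.03% were higher and 7% lower. The smallest adjusted p of a member was 0.324. At the level of probe sets, 0 of 163 member probe sets passed (0.0703% of 27022 did), and 14 higher and 2 lower ones had an unadjusted p below 0.05, where the shares among all probe sets were 4.14% and 6.47%.

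The direction was mostly shared. Of 88 members, 75 had a positive difference (85.2%, against 47.8% of all genes), with a median log2 difference of 0.14 (middle 50% of members from 0.07 to 0.22), against a median of -0.02 over all genes. The members are for the most part bright, and 71 had a mean log2 intensity above 12, an intensity of 4096. Of these 71, 66 had a positive difference (median 0.14). The 1185 other genes above the same level had positive differences in 62.4% of cases and a median of 0.06, and the 12039 other genes below it had a median of -0.03. Quantile normalization, which gives all arrays 1 distribution of intensities, left 73.9% of members positive with a median of 0.08, against 51.2% and 0.01 for all genes. In bulk liver, a change in the number of cells of a type and a change in RNA per cell cannot be told apart.

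**Figure D1:**
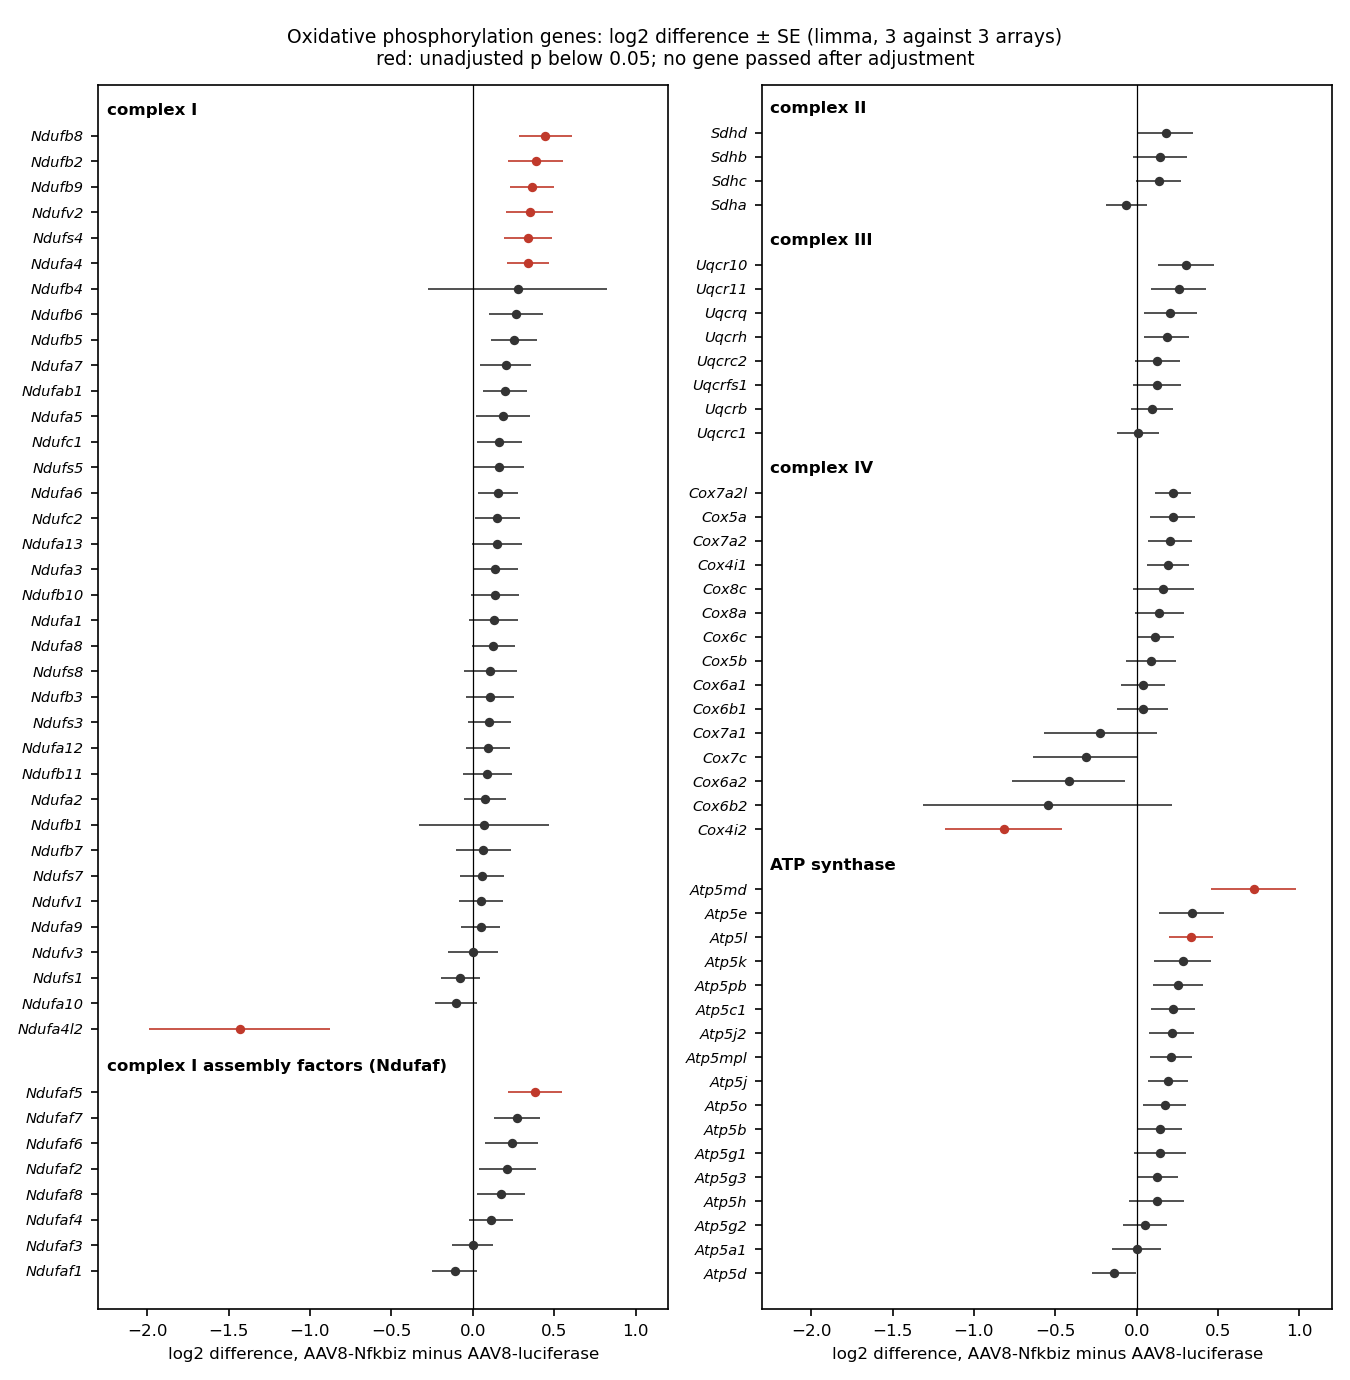
Log2 difference, AAV8-Nfkbiz minus AAV8-luciferase, ± SE of each of the 88 members above the intensity filter (points, horizontal axis), ordered within each complex, with the 11 members at an unadjusted limma p below 0.05 in red. Most points lie between 0 and 0.4, the point farthest right is Atp5md at 0.72, and Ndufa4l2 and Cox4i2 lie farthest left at -1.43 and -0.82, with 0 of 88 passing after adjustment.

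The intervals were narrow for bright members and wide for dim ones. The 95% interval included 0 for 77 of 88 members, and for 81 it lay wholly between -1 and 1, so that a difference of 1 log2 unit or more in either direction was outside it. The 7 others were Atp5md, Ndufa4l2, Cox4i2, Cox6a2, Cox7c, Cox6b2 and Ndufb4. The median SE was 0.14 among the 71 bright members and 0.19 among the 17 others.

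Complex I, taken by symbol, was the largest group, with 36 of the 88 members, and held the most members with a small p. Of its 36 genes above the filter, 33 had a positive difference (median 0.14), and 6 higher and 1 lower one had an unadjusted p below 0.05, with 0 passing after adjustment. These counts hold Ndufa4 and Ndufa4l2, which carry a complex I name although the Ndufa4 protein belongs to complex IV. Without this pair 32 of 34 genes were positive (median 0.14), and 5 higher and 0 lower ones had an unadjusted p below 0.05 in the limma fit. At the same p, 5.03% of all genes were higher and 7% lower. The Ndufb genes, which encode accessory subunits of the membrane arm, had positive differences in 11 of 11 cases, with a median of 0.26. The median was 0.13 for 14 Ndufa genes, 0.11 for 6 Ndufs genes and 0.05 for 3 Ndufv genes. The 6 nuclear-encoded core subunits measured here, from the catalytic part that has bacterial counterparts, had a median of 0.08, and 5 were positive. No difference between these subgroups was tested.

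Ndufb8, an accessory membrane-arm subunit, read 13210, 16127 and 11385 in Nfkbiz livers, against 8712, 9362 and 11764 in luciferase livers. The third luciferase liver lay above the third Nfkbiz liver, and the difference of 0.45 ± 0.16 had a limma adjusted p of 0.324. Its second probe set, far dimmer, had a difference of -0.13 ± 0.25.
Ndufb9, another membrane-arm subunit, read 21605, 24822 and 19246 in Nfkbiz livers, against 15219, 18139 and 17511 in luciferase livers. Here the groups did not overlap (0.36 ± 0.14, limma adjusted p = 0.332). They did overlap on a second bright Ndufb9 probe set, at 0.19 ± 0.16.
Ndufb2 read 10944, 14220 and 9753 in Nfkbiz livers, against 7906, 8137 and 10540 in luciferase livers. The groups overlapped through the third liver of each (0.39 ± 0.17, limma adjusted p = 0.40001), although a second Ndufb2 probe set showed no overlap at 0.46 ± 0.15.

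Ndufv2, a core subunit with an iron-sulphur cluster next to the site of NADH oxidation, read 10882, 12707 and 9166 in Nfkbiz livers, against 7869, 9105 and 8563 in luciferase livers. The lowest Nfkbiz liver stood just above the highest luciferase liver (0.35 ± 0.14, limma adjusted p = 0.367). On the other Ndufv2 probe sets, at 0.24 ± 0.18 and 0.22 ± 0.17, the groups overlapped. Ndufs4, an accessory subunit whose loss causes Leigh syndrome in humans, read 4553, 5962 and 4210 in Nfkbiz livers, against 3605, 3971 and 3919 in luciferase livers. The groups were again separate but close (0.34 ± 0.15, limma adjusted p = 0.390). A dimmer Ndufs4 probe set had the smallest p of all member probe sets, at 0.60 ± 0.14 and a limma adjusted p of 0.211 over the probe sets. Another, at 0.12 ± 0.17, overlapped between the groups, and the dimmest, at 0.46 ± 0.38, did not. In the other direction, Ndufs1, the largest core subunit, was at -0.08 ± 0.12 and Ndufa10 at -0.10 ± 0.13. Ndufb5 read 9796, 10253 and 7880 in Nfkbiz livers, against 7308, 8797 and 7241 in luciferase livers, and the groups overlapped (0.26 ± 0.14). Ndufb4 and Ndufb1, read here by dim probe sets, were at 0.28 ± 0.55 and 0.07 ± 0.40.

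Ndufa4, the complex IV subunit with a complex I name, read 22224, 23619 and 19154 in Nfkbiz livers, against 15609, 18189 and 17463 in luciferase livers, with no overlap (0.34 ± 0.13, limma adjusted p = 0.339). Its paralogue Ndufa4l2, known as a target of the hypoxia-inducible factor HIF-1, had a difference of the opposite sign. Ndufa4l2 read 114.0, 32.3 and 24.8 in Nfkbiz livers, against 136.8, 107.0 and 122.0 in luciferase livers. The first Nfkbiz liver lay within the luciferase range and the other 2 were below the intensity filter of 47.4 (-1.43 ± 0.56, limma adjusted p = 0.343). With 1 array left out the difference ran from -2.10 (without the first Nfkbiz liver) to -1.001 (without the third), and readings below the filter leave its size inexact.

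The rule also took 8 Ndufaf genes, which encode factors that assemble complex I and are not part of the finished enzyme. Of these 6 had positive differences, with a median of 0.19. Ndufaf5, which modifies the core subunit NDUFS7, read 402.1, 482.8 and 415.1 in Nfkbiz livers, against 342.2, 302.3 and 353.2 in luciferase livers. The groups did not overlap (0.38 ± 0.17, limma adjusted p = 0.401). Ndufaf7, a mitochondrial methyltransferase, read 626.2, 676.5 and 719.7 in Nfkbiz livers, against 550.6, 581.6 and 540.6 in luciferase livers, also without overlap (0.27 ± 0.14, limma adjusted p = 0.477). Ndufaf6 read 1391, 1541 and 1200.0 in Nfkbiz livers, against 955.4, 1288 and 1268 in luciferase livers, which overlapped (0.24 ± 0.16). Ndufaf1 was at -0.11 ± 0.14, and Ndufaf3 was within 0.01 of 0.

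**Figure D2:**
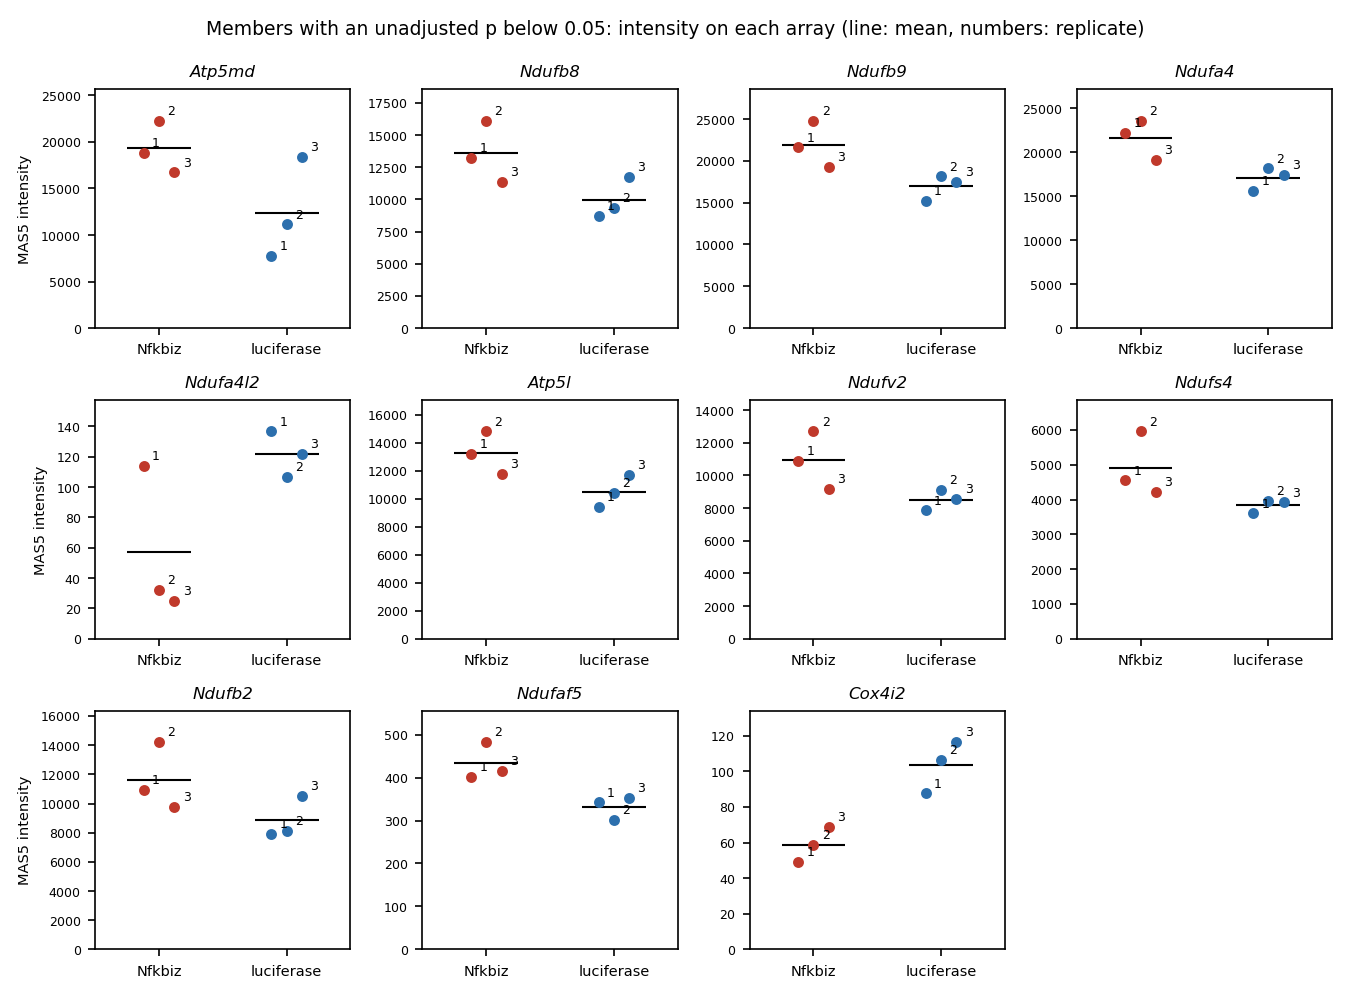
MAS5 intensity (vertical axes, linear from 0) of the 11 members at an unadjusted limma p below 0.05 on each of the 3 AAV8-Nfkbiz arrays (left, red) and 3 AAV8-luciferase arrays (right, blue), with the group mean as a line and the replicate number beside each point. The second Nfkbiz array is the highest for all 9 members with a positive difference, and the groups do not overlap for Ndufb9, Ndufa4, Atp5l, Ndufv2, Ndufs4, Ndufaf5 and Cox4i2.

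Complex II also works in the citric acid cycle, and 3 of its 4 genes had a positive difference (median 0.14). Sdha, the flavoprotein subunit, read 10645, 9630.5 and 9456 in Nfkbiz livers, against 9292, 10613 and 11207 in luciferase livers. The groups covered much the same range (-0.06 ± 0.12, 95% interval from -0.34 to 0.21). Sdhb, the iron-sulphur subunit, read 17783, 19373 and 13941 in Nfkbiz livers, against 12991, 15022 and 18291 in luciferase livers, with wide overlap (0.14 ± 0.17). The membrane anchor Sdhc read 9250, 10634 and 8504 in Nfkbiz livers, against 7514, 9010 and 9322 in luciferase livers. Its overlap was as broad (0.14 ± 0.14). For the second anchor, Sdhd, the third Nfkbiz liver was the lowest of all: it read 9921, 11246 and 7264 in Nfkbiz livers, against 7386, 9172 and 8249 in luciferase livers (0.18 ± 0.17). Limma adjusted p-values ran from 0.722 for Sdhd to 0.875 for Sdha.

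All 8 complex III genes had a positive difference, with a median of 0.16, and none had an unadjusted p below 0.05. Uqcr10, a small subunit, read 8448, 10482 and 7348 in Nfkbiz livers, against 6013, 6668 and 8628 in luciferase livers, and the third luciferase liver lay above 2 of the 3 Nfkbiz livers (0.30 ± 0.17, limma adjusted p = 0.517). Uqcr11 read 17003, 19502 and 14535 in Nfkbiz livers, against 12229, 12996 and 17718 in luciferase livers, with the same overlap (0.26 ± 0.17). Uqcrh, the hinge protein that binds cytochrome c1, read 14728, 16855 and 12732 in Nfkbiz livers, against 11963, 12995 and 13857 in luciferase livers (0.18 ± 0.14). The Rieske protein gene Uqcrfs1 was at 0.13 ± 0.15 and the core protein genes Uqcrc1 and Uqcrc2 at 0.01 ± 0.13 and 0.13 ± 0.14.

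Of 15 complex IV genes above the filter 10 had a positive difference (median 0.09), and this median was -0.02 after quantile normalization, -0.01 after loess normalization and -0.03 without the first luciferase array. The 5 with a negative difference, Cox4i2, Cox6a2, Cox6b2, Cox7a1 and Cox7c, were all read by dim probe sets. All complex IV genes with a mean log2 intensity above 12 had a positive difference in the main fit. Cox7a2l read 5570, 5114 and 5481 in Nfkbiz livers, against 4571, 4668 and 4609 in luciferase livers. The groups did not overlap, and the difference was small (0.22 ± 0.11, limma adjusted p = 0.460). Of the other Cox7a2l probe sets, the one at 0.22 ± 0.13 overlapped and the one at 0.21 ± 0.13 did not. Cox5a, a matrix-side subunit, read 25868, 30420 and 25199 in Nfkbiz livers, against 20824, 22846 and 26290 in luciferase livers, and the groups overlapped (0.22 ± 0.14). Cox6c was at 0.11 ± 0.12 with no overlap, while a second Cox6c probe set, at 0.22 ± 0.17, overlapped. Cox5b, read by 5 probe sets above the filter, was at 0.09 ± 0.15. A dim Cox5b probe set was at -0.55 ± 0.28 while the 4 bright ones lay between 0.02 and 0.10. Cox7c was read here by a dim probe set (-0.31 ± 0.32).

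Several complex IV subunits have a second isoform made mainly in other tissues, and these were dim in all livers, except for 1 probe set of Cox8c. On it Cox8c, a testis isoform, read 598, 464 and 462 in Nfkbiz livers, against 445, 379 and 541 in luciferase livers, and the groups overlapped (0.16 ± 0.19). The other Cox8c probe set above the filter was dim, with means of 129.2 and 144.1, and had the opposite sign (-0.15 ± 0.32, with overlap). Cox4i2, the isoform of lung and of oxygen-sensing cells, read 49.3, 58.7 and 68.6 in Nfkbiz livers, against 87.6, 106.4 and 116.5 in luciferase livers. The groups did not overlap (-0.82 ± 0.36, limma adjusted p = 0.404), and Cox4i2 was the 1 member that was lower in Nfkbiz livers without overlap. Its widely expressed counterpart Cox4i1 read 22831, 25448 and 20289 in Nfkbiz livers, against 18702, 19457 and 21712 in luciferase livers (0.19 ± 0.13), with overlap.
The heart and muscle isoform Cox6a2 read 68.3, 105.3 and 135.1 in Nfkbiz livers, against 176.8, 114.8 and 114.3 in luciferase livers (-0.42 ± 0.35). Its counterpart Cox6a1 read 33657, 37455 and 29865 in Nfkbiz livers, against 29519, 34712 and 33736 in luciferase livers, at 0.04 ± 0.13. Both overlapped between the groups.
The testis isoform Cox6b2 read 15.3, 95.9 and 151.5 in Nfkbiz livers, against 116.8, 115.2 and 51.4 in luciferase livers. With so wide a spread the difference of -0.55 ± 0.77 turned to 0.45 without the first Nfkbiz liver. Cox6b1 read 24642, 27713 and 21883 in Nfkbiz livers, against 20978, 22533 and 29282 in luciferase livers (0.04 ± 0.16).

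The muscle isoform Cox7a1 read 94.3, 80.03 and 100.03 in Nfkbiz livers, against 95.7, 81.1 and 154.6 in luciferase livers, where 1 luciferase liver, the last, stood above the rest (-0.22 ± 0.35, and 0.047 without it). Cox7a2, the isoform of liver, read 32738, 35720 and 30279 in Nfkbiz livers, against 26116, 27145 and 32692 in luciferase livers (0.20 ± 0.14). Cox8a, the liver isoform of the smallest subunit, read 12605, 14694 and 10026 in Nfkbiz livers, against 10648, 11987 and 10903 in luciferase livers (0.14 ± 0.15), with overlap. Cox8b was below the filter at 17.4, 27.9 and 48.1 in Nfkbiz livers, against 13.6, 3.01 and 35.5 in luciferase livers. Of the 6 isoforms named for other tissues or for hypoxia and above the filter (Cox4i2, Cox6a2, Cox6b2, Cox7a1, Cox8c and Ndufa4l2), 5 had a negative difference, with a median of -0.48. The exception, Cox8c, was positive only on the brighter of its probe sets above the filter. This grouping was made with the values known and carries no test.

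**Figure D3:**
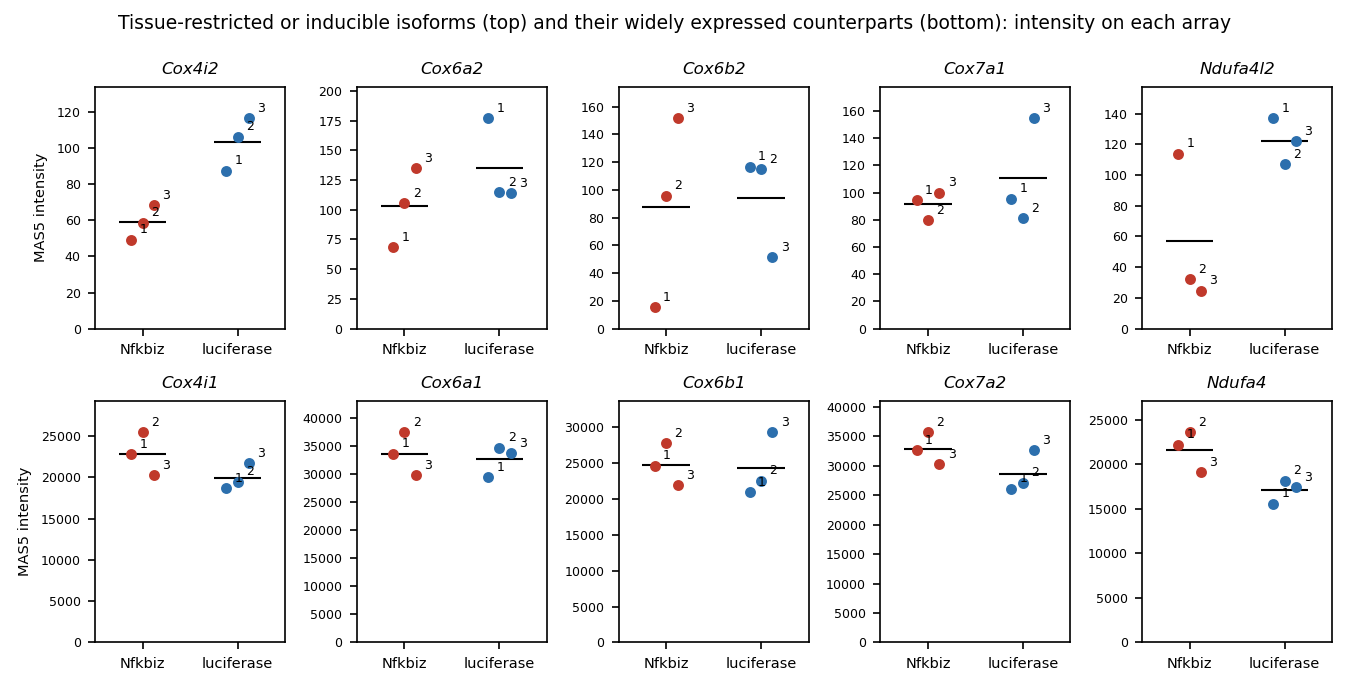
MAS5 intensity (vertical axes, linear from 0, scaled per gene) of 5 tissue-restricted or inducible isoforms (top row) and of their widely expressed counterparts (bottom row) on each AAV8-Nfkbiz array (left, red) and AAV8-luciferase array (right, blue), with the group mean as a line. The groups are separate for Cox4i2, lower in Nfkbiz livers, and for Ndufa4, higher in Nfkbiz livers, and they overlap for the other 8 genes.

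Markers of other cells stood beside these dim isoforms as follows. Striated muscle markers were near background, with 2 of 6 above the filter, Acta1 and Ckm, at -0.37 ± 0.68 and -0.28 ± 0.31, and a summed intensity from 214.4 to 319.4 in Nfkbiz livers, against 285.9 to 377.8 in luciferase livers. Ucp1 and Cidea, which define brown fat, were below the filter. Of 7 stellate cell markers, 6 had a negative difference and 0 passed (median -0.53), and their summed intensity ran from 21938 to 29328 in Nfkbiz livers, against 21630 to 40053 in luciferase livers. Endothelial markers were positive in 6 of 6 cases (median 0.33, 0 passing), summing to 7206 to 9080 in Nfkbiz livers, against 3938 to 8024 in luciferase livers. For 12 Kupffer cell and macrophage markers, 11 were positive and 0 passed (median 0.71), with sums from 48724 to 63514 in Nfkbiz livers, against 32812 to 45939 in luciferase livers. Of 7 T and NK cell markers 4 were positive (median 0.39), and Gzma, a granzyme gene, rose by 1.77 ± 0.28 (limma adjusted p = 0.0427). B cell, neutrophil and cholangiocyte markers had medians of 0.53, 0.84 and -0.64 over 3 genes each, with 0 passing. The part of these cells in the values of the oxidative phosphorylation genes was not tested.

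ATP synthase had the highest median of the respiratory complexes, 0.19, with 15 of 17 genes positive. The 12 genes of the membrane part and the peripheral stalk were all positive (median 0.20), and among the 5 genes of the catalytic head and central stalk 3 were positive (median 0.14). The catalytic subunits themselves, Atp5b and Atp5a1, were at 0.14 ± 0.14 and within 0.01 of 0 (95% interval from -0.33 to 0.33), and the delta subunit gene Atp5d was at -0.14 ± 0.14.
Atp5md, a small membrane subunit linked to the dimers of the enzyme, had the smallest p of all members. It read 18861, 22297 and 16742 in Nfkbiz livers, against 7720, 11146 and 18378 in luciferase livers. The third luciferase liver read above the third Nfkbiz liver, so that the groups overlapped (0.72 ± 0.26, 95% interval from 0.13 to 1.30, limma adjusted p = 0.324). The difference was 1.05 without the third luciferase liver and 0.42 without the first.

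Atp5l, subunit g of the membrane part, read 13202, 14836 and 11798 in Nfkbiz livers, against 9420, 10417 and 11723 in luciferase livers. The groups were just separate (0.34 ± 0.14, limma adjusted p = 0.363). Atp5e, the epsilon subunit of the central stalk, read 11582, 15221 and 9884 in Nfkbiz livers, against 8036, 8634 and 12441 in luciferase livers, with overlap (0.34 ± 0.20). Atp5pb, subunit b of the peripheral stalk, read 25316, 27143 and 22469 in Nfkbiz livers, against 17660, 20531 and 25187 in luciferase livers, and overlapped as well (0.25 ± 0.15). A second, dimmer Atp5pb probe set showed no overlap, at 0.43 ± 0.13. Atp5c1, the gamma subunit that turns within the head, read 22037, 24774 and 18890 in Nfkbiz livers, against 17126, 19032 and 19835 in luciferase livers (0.22 ± 0.14). Atp5mpl, a further small membrane subunit, read 9446, 11105 and 8822 in Nfkbiz livers, against 8116, 9116 and 8050 in luciferase livers (0.21 ± 0.13). The lowest Nfkbiz liver lay below 2 luciferase livers for Atp5c1 and below 1 for Atp5mpl.

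The groups did not overlap for 9 members that were higher in Nfkbiz livers (10.2% of members, against 8% of all genes) and for 1 that was lower (1.14%, against 10% of all genes). Where a member had several probe sets above the filter, 47 genes in all, the probe sets had 1 sign for 38 genes and both signs for 9, and for none did they lie over 1 apart on the log2 scale. For 18 of the 88 members, among them Sdha, Atp5e, Atp5pb, Atp5c1, Uqcrh and Ndufaf7, the reading probe set ends in _s_at or _x_at. By the platform's naming these share probes with other transcripts, so their values can include paralogues or processed copies and are uncertain in that respect.

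Single arrays carried much of the shared direction. Expressed as the median deviation of the members from their own means, the Nfkbiz livers stood at 0.08, 0.23 and -0.08, and the luciferase livers at -0.21, -0.07 and 0.06. The groups therefore overlapped, and the third Nfkbiz liver lay below 2 of the 3 luciferase livers. The second Nfkbiz liver was the highest of 6 for 59 of 88 members, and the first luciferase liver the lowest for 58. Other genes with a mean log2 intensity above 12 deviated the same way on 5 arrays, by 0.03, 0.10 and -0.03 in the Nfkbiz livers, against -0.12, 0.01 and 0.05 in the luciferase livers, the second luciferase liver being the exception in sign. Without the second Nfkbiz array the median difference of the members was 0.07, and without the first luciferase array it was also 0.07, with 0 members at an unadjusted p below 0.05 in both cases. Of all 13312 genes, 518 were higher and 628 lower at that p without the second Nfkbiz array. Without the first luciferase array 676 were higher and 669 lower. Without the third luciferase array the median was 0.21 and 16 members had an unadjusted p below 0.05, still with 0 past the threshold and a smallest adjusted p of 0.0751. All 16 were higher in Nfkbiz livers (18.2% of members). Of all 13312 genes 850 (6.39%) were higher and 1029 lower at the same unadjusted p.

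**Figure D4:**
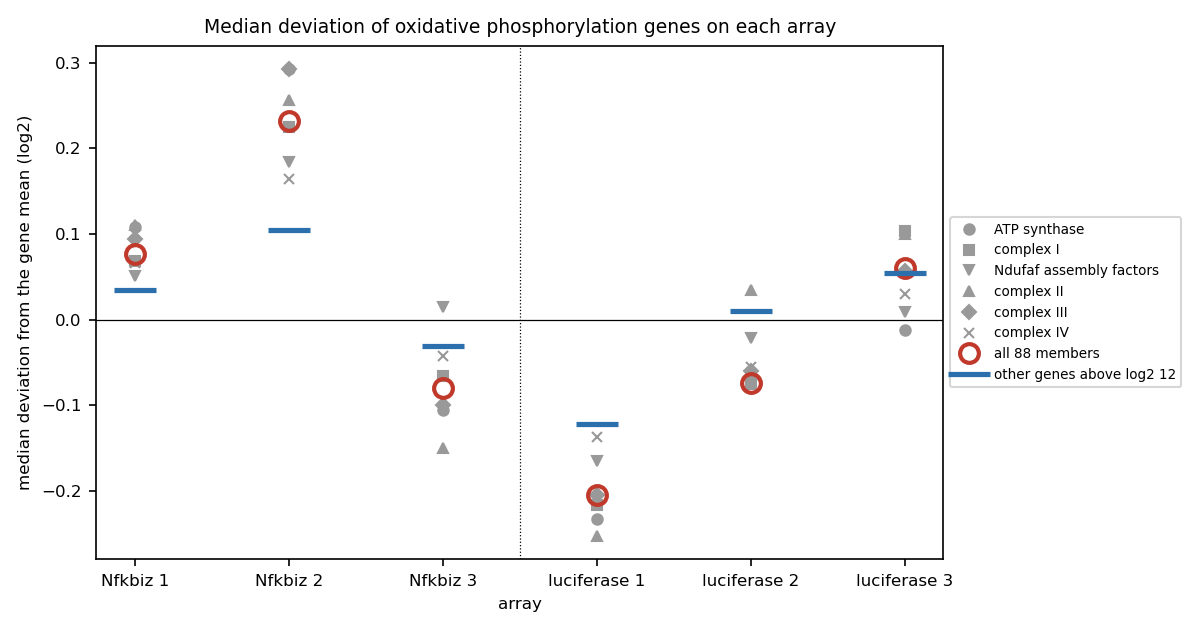
Median deviation of members from their mean over the 6 arrays (vertical axis, log2), for all 88 members (red circles), for each complex (grey marks) and for 1185 other genes with a mean log2 intensity above 12 (blue bars), on the 3 AAV8-Nfkbiz arrays (left) and the 3 AAV8-luciferase arrays (right). The members reach 0.23 on the second Nfkbiz array and -0.21 on the first luciferase array, and the third luciferase array stands above the third Nfkbiz array.

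Of genes that work next to the respiratory chain, 0 passed except 1 regulator. Apart from the single gene ND5, the medians of their lists ran from 0.03 (carriers and porins) to 0.29 (cytochrome c and Cyc1). The median of the members was 0.14. Of 76 genes of the mitochondrial ribosome, which translates the subunits encoded in mitochondrial DNA, 65 were positive (median 0.17, 0 passing). At an unadjusted p below 0.05, where 5.03% of all genes were higher and 7% lower, 12 of these ribosomal genes were higher and 0 lower. The smallest adjusted p among them was 0.187, for Mrpl40 at 0.58 ± 0.15, and Mrpl32 was at 0.44 ± 0.12. The 4 factors that mature succinate dehydrogenase were all positive (median 0.28), and Sdhaf3 read 683, 806.4 and 867.5 in Nfkbiz livers, against 561.6, 587.1 and 449.8 in luciferase livers. That pair of ranges was separate (0.56 ± 0.17, limma adjusted p = 0.226), as was that of Sdhaf2, which adds the flavin to SDHA (0.34 ± 0.13). Among 19 complex IV assembly genes 14 were positive (median 0.12), with Pet100 at 0.50 ± 0.18 and Coa7 at 0.41 ± 0.15. For complex III assembly 4 of 5 were positive (median 0.17, Ttc19 at 0.24 ± 0.17 and Uqcc3 at 0.19 ± 0.15), and for the complex I assembly genes outside the Ndufaf names 4 of 7 were (median 0.04, but -0.070 without the first luciferase array, Nubpl at 0.20 ± 0.14 and Foxred1 at 0.10 ± 0.18).

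Atpif1, the inhibitor that stops ATP synthase from running backwards, read 2442, 2756 and 2537 in Nfkbiz livers, against 1997, 1675 and 2387 in luciferase livers, without overlap (0.37 ± 0.15, limma adjusted p = 0.367). Atpaf1, which assembles the catalytic head, was at 0.42 ± 0.17, and 3 of the 4 genes of that list were positive (median 0.25). Cycs, cytochrome c itself, was at 0.29 ± 0.14, Hccs, which attaches its haem, at 0.29 ± 0.14, and the complex III gene Cyc1 at 0.07 ± 0.14. In the citric acid cycle 10 of 15 genes were positive (median 0.03, but -0.023 without the second Nfkbiz array), with the isocitrate dehydrogenase gene Idh3a at 0.31 ± 0.12 and the oxoglutarate dehydrogenase gene Ogdh at -0.30 ± 0.12, neither passing. The carriers and porins had a median of 0.03 with 5 of 6 positive, but of -0.042 without the third luciferase array, Vdac1 at -0.15 ± 0.13 and Slc25a4 at 0.21 ± 0.25. The 1 subunit gene of mitochondrial DNA with a probe set of its own, ND5, read 51833, 50010 and 42233 in Nfkbiz livers, against 44322, 52489 and 52085 in luciferase livers (-0.05 ± 0.14).

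Of 12 regulators of mitochondrial biogenesis, Ppargc1a, the gene of the coactivator PGC-1α, was the 1 that passed. It fell to 405.4, 279.8 and 327.3 in Nfkbiz livers, against 723.0, 994.3 and 678.0 in luciferase livers (-1.24 ± 0.20, limma adjusted p = 0.0449), without overlap. The call was close to the threshold: the difference stayed between -1.38 and -1.04 under 17 alternatives, but the adjusted p ran from 0.0243 to 0.317 and was above 0.05 in 13 of them, among them all 6 in which 1 array was left out. Its relative Ppargc1b was at -0.51 ± 0.25 and Tfam, the packaging and transcription factor of mitochondrial DNA, at 0.24 ± 0.12, neither passing.

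**Figure D5:**
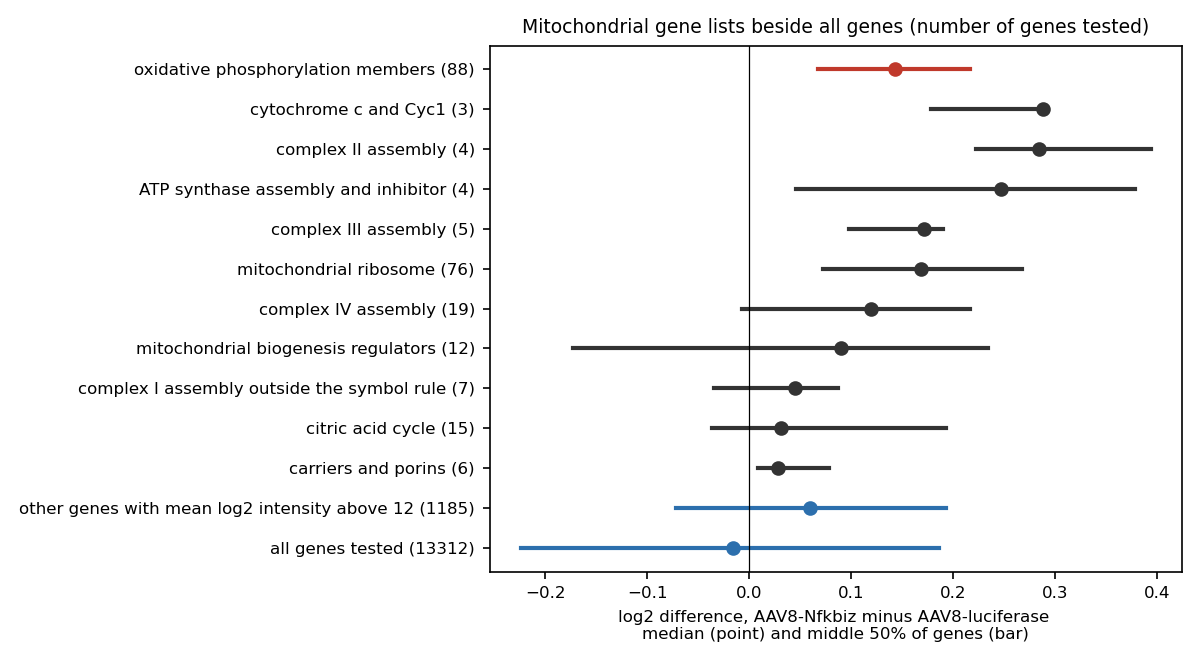
Median (point) and middle 50% (bar) of the log2 differences, AAV8-Nfkbiz minus AAV8-luciferase (horizontal axis), for the 88 members (red), for lists of neighbouring mitochondrial genes (black) and for all genes and other genes with a mean log2 intensity above 12 (blue), with the number of genes tested in brackets. The members lie at 0.14, the mitochondrial ribosome at 0.17, other bright genes at 0.06 and all genes at -0.02.

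Promoters of these genes are known to carry sites for NRF1, YY1, GABP and the estrogen-related receptors (ERR), the factors through which PGC-1 coactivators act or with which they cooperate. RefSeq promoter windows (GRCm38.p6, 250 bases before to 50 after the gene start) were matched for 74 of the 90 members. Those without an entry were Atp5a1, Atp5mpl, Cox4i1, Cox4i2, Cox6a2, Cox6c, Cox8c, Ndufa2, Ndufa4l2, Ndufaf6, Ndufb9, Ndufs1, Sdhc, Uqcrb, Uqcrc2 and Uqcrq. Each motif was searched on both strands as fixed letters: AAGATGGCG for YY1, AAGGTCA for ERR, CCGGAAGT for GABP and TGACGTCA for the cyclic AMP response element (CRE). For NRF1 the pattern had 10 letters with 1 open position. A match to it stands in capitals in the Ndufaf5 sequence, where the T fills the open position. The motifs were counted independently of each other and any overlap between them was allowed. NRF1 letters stood in 17 of 74 member promoters (23%, against 5.19% of 27025 genes with a promoter), among them Sdha, Sdhd, Atp5c1 and Cox6a1. YY1 letters stood in 7 (9.46%, against 1.64%), ERR letters in 8 (10.8%, against 5.38%), GABP letters in 5 (6.76%, against 4.31%) and CRE letters in 3 (4.05%, against 2.03%). The windows also differ in base composition, with a median GC content of 59% and a median of 20 CpG dinucleotides in the member promoters, against 52.7% and 7 over all promoters. A match is a description of the letters only.

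The 3 promoters below belong to members with an unadjusted p below 0.05 that have both an entry and a motif within the stretch shown, 250 bases before to 30 after the gene start. They are printed 5′ to 3′ on the gene's strand, in lower case with motif letters in capitals. In Atp5l (chr9:44920713-44920992, minus strand) the ERR letters, here in reverse complement, begin 13 bases before the start. In Ndufb2 (chr6:39592315-39592594, plus strand) ERR letters begin 181 and CRE letters 14 bases before the start. In Ndufaf5 (chr2:140170396-140170675, plus strand) the NRF1 letters begin 16 bases after it.
Atp5l: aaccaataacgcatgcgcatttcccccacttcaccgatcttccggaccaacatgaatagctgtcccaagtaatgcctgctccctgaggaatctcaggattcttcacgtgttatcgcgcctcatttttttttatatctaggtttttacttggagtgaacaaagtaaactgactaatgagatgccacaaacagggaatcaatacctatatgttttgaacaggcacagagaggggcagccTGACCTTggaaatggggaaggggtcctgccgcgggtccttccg
Ndufb2: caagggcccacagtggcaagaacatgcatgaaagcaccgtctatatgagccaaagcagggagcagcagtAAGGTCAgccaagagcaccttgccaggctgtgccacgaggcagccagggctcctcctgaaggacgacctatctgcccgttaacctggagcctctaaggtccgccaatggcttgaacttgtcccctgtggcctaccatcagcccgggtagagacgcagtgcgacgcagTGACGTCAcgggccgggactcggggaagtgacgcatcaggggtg
Ndufaf5: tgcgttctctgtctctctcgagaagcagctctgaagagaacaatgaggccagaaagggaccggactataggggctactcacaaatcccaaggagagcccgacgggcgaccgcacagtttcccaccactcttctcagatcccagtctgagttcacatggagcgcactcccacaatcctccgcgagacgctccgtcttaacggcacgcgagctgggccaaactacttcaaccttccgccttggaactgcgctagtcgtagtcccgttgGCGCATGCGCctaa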

How the data were processed

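Liver RNA (100 ng of total RNA per sample, per the labels' protocols) was hybridised to Affymetrix arrays, 1 per liver. The authors deposited MAS5 intensities, which are linear in signal, and MAS5 is named per the submitters' processing notes. Its version is not given in the sources used here. Of 45037 probe sets, 34945 had 1 symbol in the GEO platform annotation, 932 had several and 9160 are unnamed here.

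Intensities were log2-transformed without a pseudocount or further scaling. Of a gene's probe sets the one with the highest mean was kept, and a filter took out the dimmest 40% of all probe sets. Groups were compared with limma 3.58.1 in R 4.3.3 (lmFit, eBayes with an intensity trend), two-sided, with Benjamini-Hochberg adjustment over all genes tested and a threshold of 0.05. The procedure was tested on simulated data in which each gene varied independently. That simulation held no shifts shared by many genes on 1 array, so it does not cover those seen here. Intervals are 95% intervals of this fit. Alternatives changed the scaling, the filter, the pseudocount, the variance prior, the array weights, the choice of probe set and the replicate block, or left out 1 array. Promoters were searched with Python 3.11.15, which also drew the figures (matplotlib 3.10.9).

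Values on every array are given for members past the threshold (0), for the 20 with the smallest unadjusted p, for up to 3 per complex by that p, for the Sdh genes, for the complex IV isoform pairs and Ndufa4l2, and for members whose probe sets lie over 1 apart (0). For neighbouring lists, genes past the threshold and the 2 with the smallest p are named. Other genes were named after their values were seen. The members and lists were chosen with earlier results of these data known, so no pattern here is independent support for those results.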

Additional observations from a re-analysis of the deposited data

How the results depend on the processing

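Under all 17 alternatives 0 oxidative phosphorylation genes passed, and 0 probe sets under the 15 that were run on probe sets. The median difference of the members stayed positive. It ran from 0.07 to 0.22 when 1 array was left out and from 0.08 (quantile) to 0.18 (median centring) otherwise. The number of members tested ran from 77 to 90 between settings, and 62 to 77 had a positive difference. As shares these were 70.5% to 91.4% of the members tested, against 45.7% to 52.2% of all genes. Members at an unadjusted p below 0.05 numbered 11, but 2 after median centring (1 higher and 1 lower), 3 without the intensity trend, 7 with the most variable probe set, 7 with the replicate block, and 0 to 16 when 1 array was left out. Those with a higher mean were 1.14% of members after median centring, against 4.61% of all genes, and 1.14% without the trend, against 4.44%. With the most variable probe set they were 7.79%, against 4.36%, and with the replicate block 6.82%, against 4.92%. When 1 array was left out they were 0 to 18.2%, against 3.73% to 6.39% of all genes. Over all genes 30 passed, 0 without the trend (1350 at an unadjusted p below 0.05), 62 with array weights, 13 with the mean of probe sets, 10 with the most variable probe set, and 8 to 19 when 1 array was left out. Signs were followed under the alternatives for 35 members only, and those of other members, some nearer 0, were not. Among the 35 the sign turned in 14 of 585 values. Cox6a1 was at -0.024 after quantile and -0.080 after loess normalization, and at -0.039 to 0.12 with 1 array left out. Cox6b1 was at -0.059, -0.069 and -0.061 to 0.18 in the same settings, and at -0.023 when probe sets were averaged. With 1 array left out Cox6b2 ran from -1.21 to 0.45 and Cox7a1 from -0.42 to 0.047. With the most variable probe set Atp5c1, at 0.22 in the main fit, was at -0.15, and Sdhd, at 0.18 in the main fit, was at -0.054. Medians turned for complex IV (-0.024 after quantile, -0.014 after loess, -0.030 to 0.14 with 1 array left out), for the citric acid cycle (-0.065 by the most variable probe set, -0.023 to 0.078 with 1 array left out), for carriers and porins (-0.042 to 0.074) and complex I assembly outside the Ndufaf names (-0.070 to 0.13) with 1 array left out, and for the biogenesis regulators (-0.14 averaging probe sets, -0.26 by the most variable one). The medians of the citric acid cycle, the carriers and the complex I assembly list, all near 0, also turned under some other scalings, weights or choices of probe set. Ppargc1a kept its direction but passed in only 4 of 17, with an adjusted p (limma) of 0.0881 under the replicate block. The cause was not tested. Same-numbered arrays shared only a number (correlations of deviations -0.0624, 0.0697 and -0.0324), and under the replicate block 27 genes and 0 members passed. The widest errors belong to dim members.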
